A study of Homo sapiens with 8 samples.

Results

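The difference between the entinostat responses of BRCA1-null and BRCA1+ cells was examined for 10405 genes, out of 17714 tested and 25369 named in the deposited table. They were selected by expression level. A member had a mean of at least 3 on the log2 CPM scale over all 8 libraries, treated ones included (CPM, counts per 1e+06 counts of the library after scaling), which is a level of about 8 CPM, and the difference of responses did not enter the rule. For each gene the log2 change with entinostat in BRCA1+ cells was subtracted from that in BRCA1-null cells, so that a positive difference means a response that was more positive, or less negative, in BRCA1-null cells. The cells were UWB1.289, an ovarian carcinoma line without functional BRCA1 (called BRCA1-null here), and its derivative transduced with the BRCA1 gene (BRCA1+). Each line received the vehicle DMSO or 0.5 uM entinostat for 24 h, with 2 libraries in each of the 4 groups. The labels do not say whether libraries of a group came from separate cultures, so p-values measure the spread between these libraries, which may be technical. BRCA1 status rests on a single pair of lines, and whether the transduced derivative is 1 clone is not given in the sources used here.

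Entinostat is a benzamide inhibitor of HDAC1 and HDAC3, deacetylases of class I. These enzymes remove acetyl groups from histone tails within corepressor complexes such as NuRD, CoREST, Sin3 and NCoR, and their inhibition is known to raise silent or weakly expressed genes and to lower many highly expressed ones, cell cycle genes among them. BRCA1 is a tumour suppressor that acts with BARD1 as a ubiquitin ligase and directs repair of DNA breaks by homologous recombination, and it has been found in complexes with class I histone deacetylases. The comparison asks whether a line with BRCA1 and a line without it respond differently to the same inhibitor.

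The libraries held 31900158 to 53549893 counts, and members took 98.1% to 98.5% of them. BRCA1 itself lay between 92.4 and 133 CPM in the BRCA1+ libraries and between 17.6 and 22.4 CPM in the BRCA1-null ones, and without drug the BRCA1-null level was lower, with a log2 fold change of -2.14 ± 0.0861 (SE, adjusted p = 5.46e-07 from edgeR). Of 8 markers of Mullerian carcinoma, 7 were members, with a summed level of 13956 to 18352 CPM per library, whereas WT1 was at or under 0.5 CPM. None of 5 leukocyte and none of 6 squamous markers was a member, although the squamous keratin KRT4 stood at 112 to 175 CPM in 3 of the 4 DMSO libraries and at or under 2.33 CPM in every entinostat library. Of 6 fibroblast markers COL1A1 and COL1A2 were members while DCN and LUM, which define fibroblasts, were at 0, and of 4 endothelial markers only CDH5 was a member.

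No member, and no gene among the 17714 tested, had a difference of responses with an adjusted p under 0.05 by the quasi-likelihood F test of edgeR, adjusted by Benjamini-Hochberg over all tested genes (0% called). The smallest adjusted p was 0.66. At an unadjusted p under 0.05, 264 members had a more positive response in BRCA1-null cells (2.54% of members, against 2.07% of all tested genes) and 158 a more negative one (1.52%, against 2.6%). This balance depended on scaling and on single libraries: the counts were 207 and 181 with DESeq2 size factors, 114 and 277 with upper-quartile factors, and 149 and 317 without BRCA1-null DMSO replicate 1. In all, 4.06% of members reached that level, against 5.54% of the 7309 genes below the expression threshold. DESeq2's Wald test called 9 members and edgeR's likelihood ratio test called 9, of which 8 were shared: VIM, VIM-AS1, KCNN4, DNM1, BRCA1, SLC7A8, EPB41L3 and GRIN2D. LGALS1 was called by the former only and VDR by the latter only. The quasi-likelihood test called none with any 1 of the 8 libraries left out. With the replicate number of the titles as a block it called 1 member, EPB41L3 (adjusted p = 0.0282), and 666 members with a more positive and 328 with a more negative response had an unadjusted p under 0.05.

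Members were measured with smaller errors than the genes below the threshold, and no call came of it. The median SE of a difference was 0.12 on the log2 scale among members and 0.459 below the threshold, and fitting the members by themselves, with adjustment over them as a stricter filter on low counts, left a smallest adjusted p of 0.378. The 95% interval of the difference had a median half-width of 0.27 among members. It lay wholly within -1 to 1, that is within a 2-fold difference of the responses, for 10216 members (98.2%), and within -0.5 to 0.5 for 8057 (77.4%). The median absolute difference was 0.09. Only 103 members had a difference beyond 0.5 in either direction and 5 beyond 1, namely SLC7A8, EPB41L3, CDH5, KRT78 and LILRB2. KRT78 and LILRB2 varied widely between libraries of a group and their intervals held 0 (LILRB2 -1.18, interval -2.93 to 0.57). LILRB2, KRT78 and CDH5 were picked out here by size, after their values were seen.

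**Figure D1:**
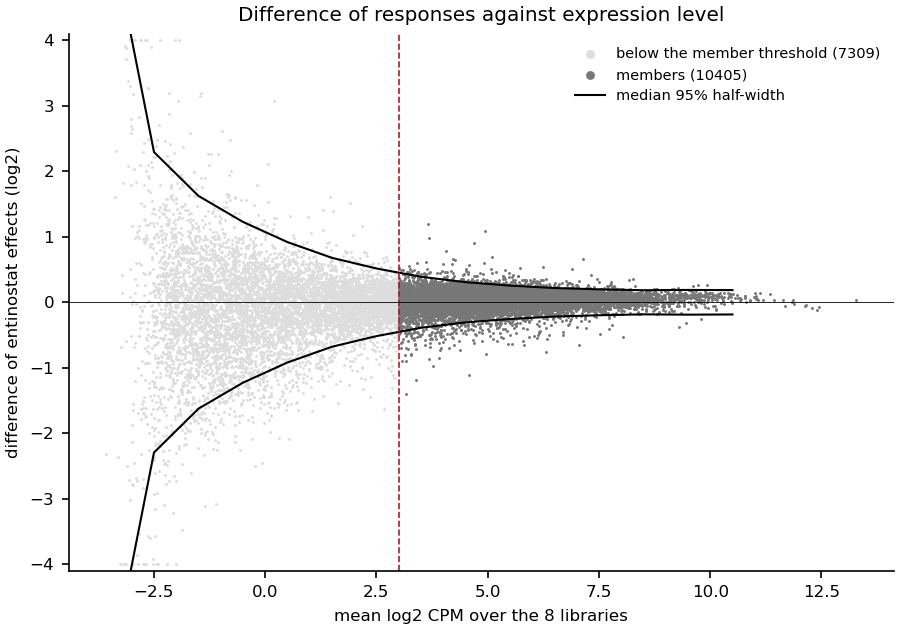
Difference of entinostat effects (log2, BRCA1-null minus BRCA1+; 26 non-members beyond 4 are drawn at 4) against the mean log2 CPM over the 8 libraries, for 10405 members and 7309 genes below the threshold at 3 (dashed line). The black lines give the median half-width of the 95% interval per unit of log2 CPM, in units with at least 20 genes, which narrows as expression rises.

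The direction of the small differences depended on how library sizes were scaled. With TMM factors 63.7% of members had a positive difference (median 0.04), with DESeq2 size factors 60.8% (median 0.03), and with upper-quartile factors 49.3% (median -0.00184). With TMM factors the share rose with expression, from 56.7% of members between 3 and 5 on the log2 CPM scale to 66.5% between 5 and 7 and 73.7% from 7 upwards. No direction of the members as a whole is drawn from these shares.

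In each line alone, entinostat changed many members. In BRCA1+ cells 810 members rose and 1004 fell, where 8.13% of all tested genes rose and 6% fell. With upper-quartile factors the balance turned, to 1068 risen and 626 fallen, and with only the members fitted it was 1095 and 763. In BRCA1-null cells 720 members rose and 453 fell, where 7.57% of all tested genes rose and 3.19% fell. With the replicate block, counted among members only, 1365 members rose and 1896 fell in BRCA1+ cells, and 1363 rose and 1103 fell in BRCA1-null cells. These counts rested on all libraries: without BRCA1+ entinostat replicate 2 the calls in BRCA1+ cells dropped from 1814 to 482, and without BRCA1-null DMSO replicate 2 those in BRCA1-null cells dropped from 1173 to 326. Leaving out any other library of the line tested gave 580 to 953 calls in BRCA1+ cells and 331 to 583 in BRCA1-null cells. Leaving out BRCA1+ entinostat replicate 1 or 2 also lowered the calls in BRCA1-null cells, to 756 and 759.

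The responses of the lines went largely the same way. The members called in both lines numbered 506 raised and 328 lowered, and no member was called in opposite directions. These classes were counted among the 10405 members only. Of members called in BRCA1+ cells alone, 304 were raised and 676 lowered, and of those called in BRCA1-null cells alone 214 were raised and 125 lowered. A call in one line alone is not a difference between lines: of the 676 members lowered in BRCA1+ cells only, 667 also had a negative effect in BRCA1-null cells (median -0.17, against -0.32 in BRCA1+ cells), and of the 304 raised in BRCA1+ cells only, 293 had a positive effect in BRCA1-null cells (median 0.23, against 0.41). Across the 10405 members, Pearson's r between the effects was 0.836 and Spearman's rho 0.795, and across all 17714 tested genes they were lower, at 0.594 and 0.603. This is a description across genes, which are not independent replicates, and the effects of the lines rest on separate libraries.

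The members called in both lines were compared in the size of their responses. Of the 506 raised in both, 309 (61.1%) rose more in BRCA1+ cells, with a median effect of 0.53 against 0.48 in BRCA1-null cells. Of the 328 lowered in both, 249 (75.9%) fell more in BRCA1+ cells, with medians of -0.39 and -0.34. With upper-quartile factors these shares were 73.3% and 60.4% of the same genes, so that BRCA1+ cells had the larger response in the majority of both groups under each scaling, whereas the sizes of the majorities depended on it.

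**Figure D2:**
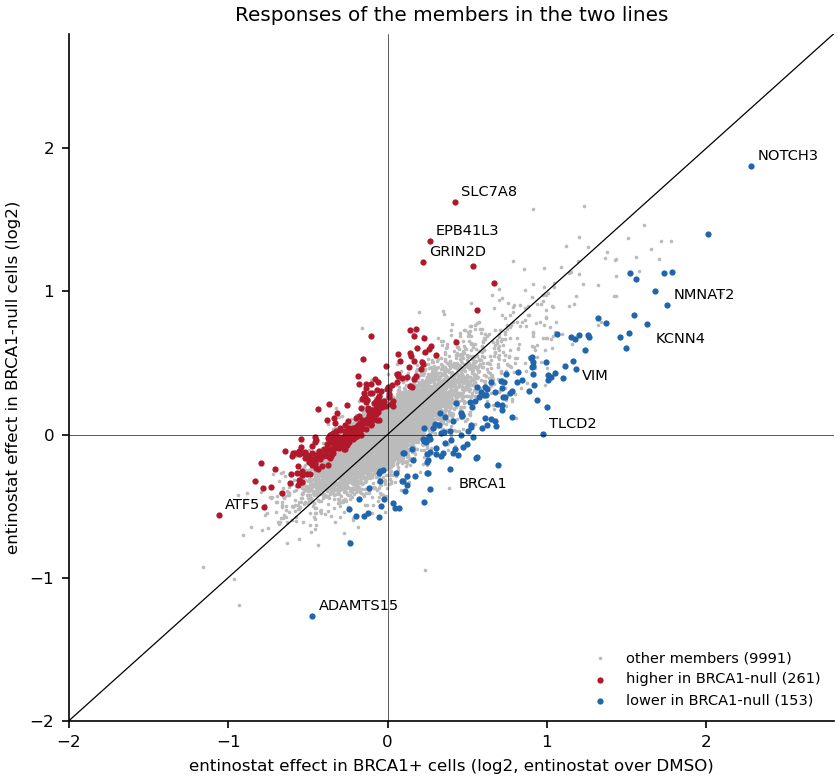
Entinostat effect in BRCA1-null cells against that in BRCA1+ cells (both log2, entinostat over DMSO) for the members, with equal responses on the diagonal. Coloured points are the 261 members with a higher and the 153 with a lower response in BRCA1-null cells at an unadjusted p under 0.05 and with no overlap of the library differences, none of which passed the adjusted test. With upper-quartile factors these counts were 112 and 269, and among all 17714 tested genes, with TMM factors, they were 363 and 452. KRT78 lies outside the axes.

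A library-wise measure was read beside the test. A member was counted as not overlapping when all 4 differences between an entinostat and a DMSO library of one line lay above all 4 of the other. This held for 1313 members with the higher response in BRCA1-null cells (12.6%, against 10.5% of all tested genes) and for 505 with the lower one (4.85%, against 7.82%). With upper-quartile factors the order turned, to 730 and 863. Of the 1313 and 505, 261 and 153 also had an unadjusted p under 0.05. Among all 17714 tested genes 363 and 452 met both conditions, so there the lower response was the more frequent one. With upper-quartile factors 112 and 269 members met both conditions. The 261 consisted of 118 members with negative effects in both lines, 100 with a negative effect in BRCA1+ and a positive one in BRCA1-null cells, and 43 with positive effects in both. Of the 153, 93 had positive effects in both lines, 45 a positive effect in BRCA1+ and a negative one in BRCA1-null cells, and 15 negative effects in both. The 261 were expressed at a median log2 CPM of 5.57 and had a median difference of 0.28, whereas the 153 were expressed at 4.72 and had a median difference of -0.46. Beyond 0.5 lay 17 of the former and 59 of the latter.

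The 10 members named for the largest differences with a higher response in BRCA1-null cells were chosen for that size, and none passed the adjusted test. SLC7A8 (hg19 chr14:23594504-23652869, minus strand) encodes the neutral amino acid transporter LAT2. Its level in BRCA1+ cells was 38 and 30.3 CPM in DMSO and 47.7 and 43.8 CPM with entinostat, and in BRCA1-null cells 2.62 and 2.06 CPM in DMSO and 8.34 and 5.89 CPM with entinostat. The BRCA1-null libraries all lay below the BRCA1+ ones, and entinostat and DMSO libraries did not overlap in either line. The log2 rise of SLC7A8 was 1.63 ± 0.238 (SE) in the BRCA1-null line (adjusted p = 0.0051), against 0.42 ± 0.138 in BRCA1+ cells (adjusted p = 0.0741, and 0.00402 with the replicate block). The difference was 1.20 (95% interval 0.58 to 1.83, unadjusted p = 0.00184, adjusted p = 0.967).

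EPB41L3 (chr18:5392380-5628990, minus strand) encodes protein 4.1B, which ties membrane proteins to the actin skeleton and acts as a growth suppressor in several carcinomas. Its level was 45.4 and 62.4 CPM in DMSO and 57.5 and 71.8 CPM with entinostat in BRCA1+ cells, where the treatments overlapped. In BRCA1-null cells it was 9.27 and 11.1 CPM in DMSO and 24.1 and 28.1 CPM with entinostat, a rise of 1.35 ± 0.189 on the log2 scale (adjusted p = 0.00431). The difference was 1.09 (0.53 to 1.64, unadjusted p = 0.00163, adjusted p = 0.967). With the replicate block the difference of EPB41L3 was 1.10 and passed the adjusted test (adjusted p = 0.0282), and so did its rise in BRCA1+ cells (0.27, adjusted p = 0.0164). GRIN2D, an NMDA receptor subunit, went from 3.98 and 4.86 CPM to 8.7 and 11.9 CPM in BRCA1-null cells and from 23.5 and 22 CPM to 27.4 and 25.8 CPM in BRCA1+ cells, with a difference of 0.98 (0.50 to 1.46). In these 3 genes the BRCA1-null level in DMSO was the lower one, by 14.6-fold for SLC7A8, 5.3-fold for EPB41L3 and 5.15-fold for GRIN2D, and with entinostat the lines differed by 6.43-fold, 2.48-fold and 2.58-fold. The DMSO libraries enter both of these quantities and the response, so the 2 are not independent. The member threshold was a mean over both lines. SLC7A8 and GRIN2D, under 8 CPM in BRCA1-null DMSO, met it through the higher BRCA1+ libraries. Their low level in BRCA1-null cells is therefore not a separate finding.

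**Figure D3:**
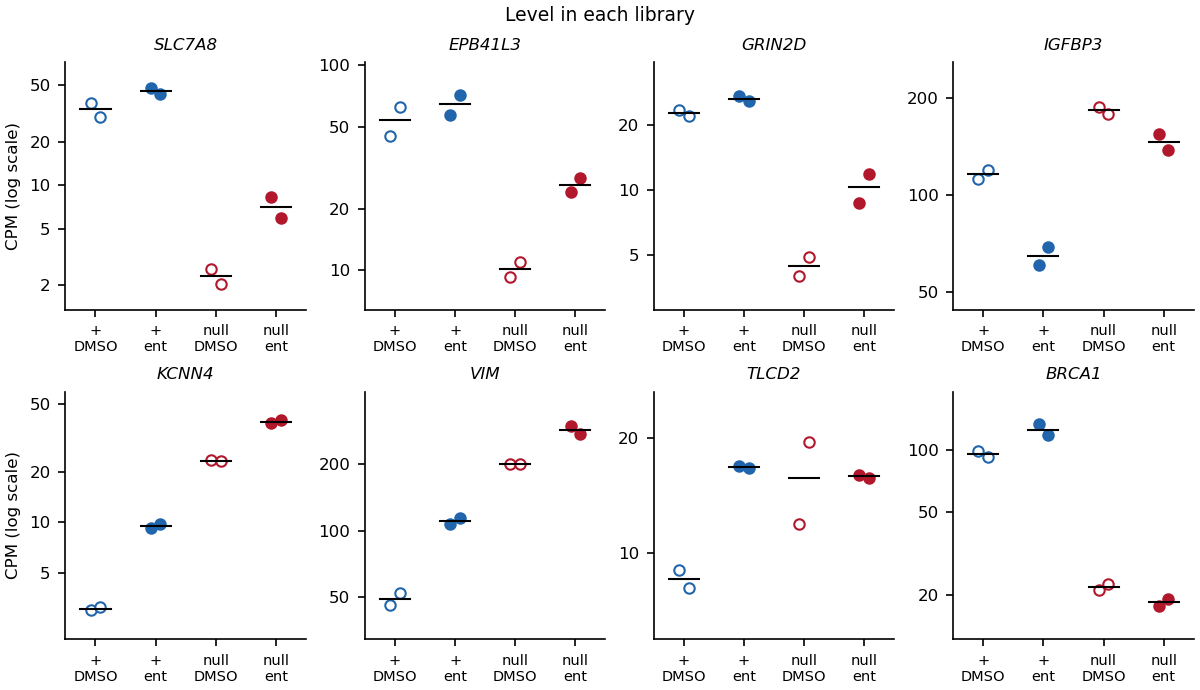
CPM (log scale) in each of the 8 libraries for 8 members, with open circles for DMSO, filled circles for entinostat (ent), blue for BRCA1+ (+), red for BRCA1-null (null) and a bar at the mean of the 2 libraries. SLC7A8, EPB41L3 and GRIN2D start lower in BRCA1-null cells and KCNN4 and VIM start lower in BRCA1+ cells, and BRCA1 is high in all 4 BRCA1+ libraries.

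The remaining members of this group had differences of 0.59 to 0.79. DENND2A, a regulator of Rab GTPases, had 31.3 and 37.8 CPM in DMSO and 29.1 and 35.1 CPM with entinostat in BRCA1+ cells, and 6.2 and 6.97 CPM against 10.5 and 10.8 CPM in BRCA1-null cells, where it rose (0.69, adjusted p = 0.0244). PPP1R14A, an inhibitor of myosin phosphatase, rose in both lines, 0.54 with BRCA1 (adjusted p = 0.0124) and 1.18 without it (adjusted p = 0.00265). EFHD1, a calcium-binding mitochondrial protein, rose in BRCA1-null cells (0.73, adjusted p = 0.00481) and had 0.14 in BRCA1+ cells. FAIM, an inhibitor of Fas-induced apoptosis, fell in BRCA1+ cells from 12.5 and 12.4 to 7.88 and 6.64 CPM (adjusted p = 0.00561), against 13.6 and 11.8 to 11.3 and 10.7 CPM in BRCA1-null cells. For the neutrophil chemokine CXCL1, the decoy interleukin-1 receptor IL1R2 and the junction protein LMO7, no effect passed the test in either line. With the replicate block CXCL1 and LMO7 rose in BRCA1-null cells (adjusted p = 0.00106 and 0.00666) and IL1R2 fell in BRCA1+ cells (adjusted p = 0.015). CXCL1 had 26 and 23.8 CPM in DMSO and 25.5 and 19.6 CPM with entinostat in BRCA1+ cells, against 46.1 and 36.1 and then 65 and 53.3 CPM in BRCA1-null cells.

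**Figure D4:**
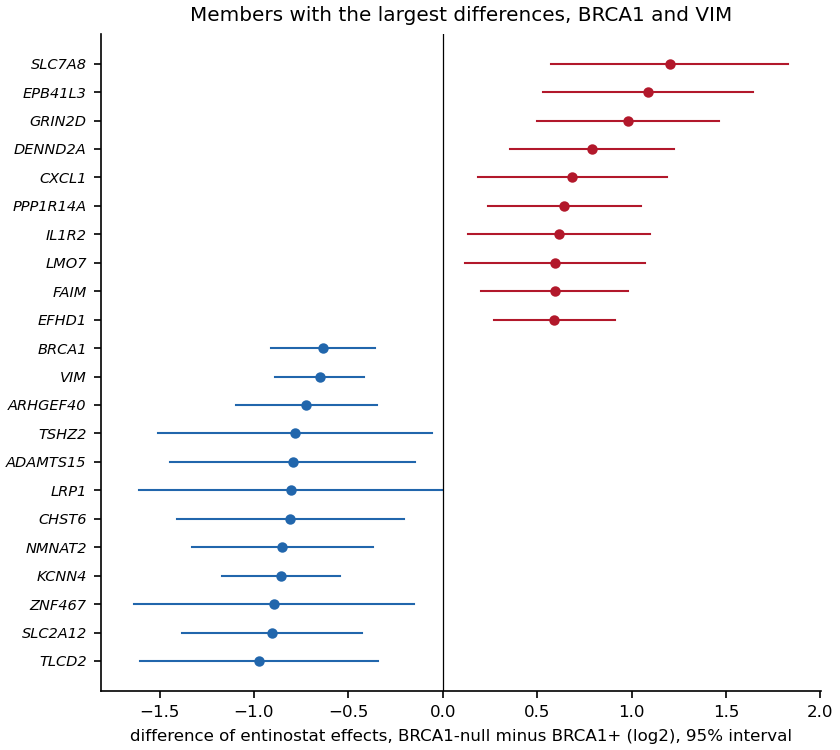
Difference of entinostat effects (log2, BRCA1-null minus BRCA1+) with its 95% interval for the 10 largest positive and 10 largest negative members at an unadjusted p under 0.05 with no overlap, and for BRCA1 and VIM. The points run from -0.97 (TLCD2) to 1.20 (SLC7A8), and the interval of LRP1 ends at 0.

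The 10 members named in the other direction were chosen in the same way. KCNN4 (chr19:44270685-44285409, minus strand), the calcium-activated potassium channel of intermediate conductance, had 3.03 and 3.16 CPM in DMSO and 9.33 and 9.79 CPM with entinostat in BRCA1+ cells, and 23.3 and 23.1 CPM against 38.9 and 40.2 CPM in BRCA1-null cells. Its rise was 1.63 ± 0.116 with BRCA1 (adjusted p = 0.000203) and 0.77 ± 0.0723 without it (adjusted p = 0.00112), and replicates stood close together in every group. The difference was -0.86 (interval -1.17 to -0.55, unadjusted p = 0.00015, adjusted p = 0.66). NMNAT2, a neuronal enzyme of NAD synthesis, rose from 9.16 and 7.21 to 26.9 and 28 CPM in BRCA1+ cells and from 11.3 and 11 to 23.7 and 17.9 CPM in BRCA1-null cells (difference -0.85). ARHGEF40 rose in both lines as well, by 1.18 in BRCA1+ and by 0.46 in BRCA1-null cells (difference -0.72), and so did the endocytic receptor LRP1 (1.51 and 0.71, difference -0.81). LRP1 had 1.98 to 6.96 CPM in the BRCA1+ libraries. LRP1 and KCNN4 met the member threshold of about 8 CPM through the BRCA1-null libraries, where they were higher.

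TLCD2, a membrane protein with a TLC domain, had the most negative difference of this group (-0.97, -1.60 to -0.34). It rose in BRCA1+ cells from 9.03 and 8.11 to 16.9 and 16.7 CPM. In BRCA1-null cells it had 11.9 and 19.5 CPM in DMSO and 16 and 15.8 CPM with entinostat, so the DMSO libraries lay on either side of the treated ones. The glucose transporter SLC2A12 rose from 6.9 and 8.21 to 11.1 and 13.2 CPM in BRCA1+ cells and had 9.58 and 8.32 against 8.36 and 7.02 CPM in BRCA1-null cells (difference -0.90). CHST6, a sulfotransferase of keratan sulfate, and the zinc finger genes ZNF467 and TSHZ2 were raised in BRCA1+ cells (1.00, 1.50 and 1.46) without passing the test in BRCA1-null cells (0.19, 0.60 and 0.68). ZNF467 and TSHZ2 passed it there too with the replicate block (adjusted p = 0.0244 and 0.00852). ADAMTS15, a secreted metalloprotease, was the only one of the 10 with a fall in BRCA1-null cells that passed the test. It went there from 31.5 and 27.6 to 13.7 and 10.7 CPM (-1.27, adjusted p = 0.00948), and in BRCA1+ cells it had 48.3 and 72.6 against 38.4 and 48.5 CPM (adjusted p = 0.132).

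Ranked by the unadjusted p instead, a choice made after the values were seen, the first members had smaller differences with narrow intervals. VIM (chr10:17270258-17279592, plus strand) encodes vimentin, the intermediate filament of mesenchymal cells. It had 46.1 and 52.1 CPM in DMSO and 107 and 114 CPM with entinostat in BRCA1+ cells, and 199.6 and 201 CPM against 298 and 273 CPM in BRCA1-null cells. All BRCA1-null libraries lay above all BRCA1+ libraries, and both lines rose, by 1.16 ± 0.0765 and by 0.51 ± 0.0712. The difference was -0.65 (-0.89 to -0.42, unadjusted p = 0.000139, adjusted p = 0.66). VIM-AS1, which overlaps VIM on the opposite strand, gave -0.63. Since no use of strand is stated for the counting, reads of the pair cannot be told apart and they are not separate observations.

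DNM1, the dynamin that cuts vesicles from the membrane of neurons, rose by 1.00 in BRCA1+ and by 0.42 in BRCA1-null cells, a difference of -0.59. Similar in size were the differences of the mitochondrial transporter SFXN3 (-0.58), the actin-severing protein GSN (-0.45), the galectin LGALS1 (-0.48) and the adhesion molecule MCAM (-0.40), each raised in both lines. VDR, the vitamin D receptor, had 27.9 and 28 CPM in DMSO and 37.4 and 36.9 CPM with entinostat in BRCA1+ cells, where it rose (0.41, adjusted p = 0.00585), and 48.8 and 50.9 CPM against 45.3 and 46 CPM in BRCA1-null cells (-0.13, adjusted p = 0.226). ATF5 was the only one of the first 10 with a positive difference (0.49): this stress-response factor fell by 1.06 in BRCA1+ and by 0.56 in BRCA1-null cells.

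BRCA1 had the sixth smallest p among the members. Entinostat took it from 98.9 and 92.4 CPM to 133 and 118 CPM in BRCA1+ cells, where it rose by 0.39 ± 0.0784 (adjusted p = 0.0124), and from 21 and 22.4 CPM to 17.6 and 19.2 CPM in BRCA1-null cells (-0.24 ± 0.0936, adjusted p = 0.131). The difference was -0.64 (-0.91 to -0.36, unadjusted p = 0.000527, adjusted p = 0.967), with no overlap between the lines. The BRCA1+ line carries an introduced copy of the gene, and the counts per symbol cannot tell its transcripts from those of the endogenous locus.

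The 250 bases before a RefSeq transcription start are shown for 4 of the members at either end of the comparison. Genes with the larger rise in BRCA1-null cells (SLC7A8, EPB41L3) can thus be read beside those with the larger rise in BRCA1+ cells (KCNN4, VIM). The sequences are from RefSeq on GRCh38.p14, at chr14:23155321-23155570 (minus strand), chr18:5628992-5629241 (minus), chr19:43780974-43781223 (minus) and chr10:17227991-17228240 (plus). Their starts were not matched to the hg19 gene models of the counts, so a stretch may lie inside a counted gene or away from its start. Capitals mark GGGCGG (the GC box, which Sp1 binds) and TGANTCA (a degenerate form of the AP-1 element, with any base at N) on either strand.
SLC7A8: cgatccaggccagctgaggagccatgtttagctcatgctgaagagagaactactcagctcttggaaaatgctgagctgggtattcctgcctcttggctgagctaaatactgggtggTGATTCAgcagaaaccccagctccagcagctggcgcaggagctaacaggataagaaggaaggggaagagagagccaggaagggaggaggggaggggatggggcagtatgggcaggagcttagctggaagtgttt
EPB41L3: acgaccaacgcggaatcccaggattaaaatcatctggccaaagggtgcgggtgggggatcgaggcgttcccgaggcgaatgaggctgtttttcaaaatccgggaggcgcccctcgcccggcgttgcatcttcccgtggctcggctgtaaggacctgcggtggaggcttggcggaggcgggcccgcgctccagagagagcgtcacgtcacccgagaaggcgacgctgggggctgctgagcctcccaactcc
KCNN4: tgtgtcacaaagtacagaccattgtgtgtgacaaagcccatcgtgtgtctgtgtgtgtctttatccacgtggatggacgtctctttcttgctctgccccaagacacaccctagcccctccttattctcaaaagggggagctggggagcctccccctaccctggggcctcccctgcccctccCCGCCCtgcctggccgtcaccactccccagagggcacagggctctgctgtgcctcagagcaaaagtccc
VIM: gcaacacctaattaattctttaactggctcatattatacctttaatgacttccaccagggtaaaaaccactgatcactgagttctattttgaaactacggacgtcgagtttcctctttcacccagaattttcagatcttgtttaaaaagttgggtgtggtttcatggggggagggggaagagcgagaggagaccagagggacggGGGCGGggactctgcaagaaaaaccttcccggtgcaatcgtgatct

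SLC7A8 had 1 AP-1 match and no GC box, EPB41L3 had neither, and KCNN4 and VIM had 1 GC box each. GRIN2D, with the higher response in BRCA1-null cells, also had 1 GC box, as did DNM1 and BRCA1, whose sequences are not shown. The RefSeq starts of these genes and of the sets below were likewise not matched to the hg19 gene models. The GC box found for BRCA1 may therefore lie away from the start of the counted gene. A GC box was found in 42.3% of 27305 RefSeq promoters of that length and in 69.6% of the 8392 that matched a member (80.7% of members). It was found in 57% of 214 matched members among the 261 with the higher response in BRCA1-null cells (82% matched). For the 153 with the lower response only 115 (75.2%) matched, under the 80% required for such a count, so none is given for them. AP-1 matches were held by 6.6% of all promoters, 3.38% of members and 3.74% of the 214. These are letters in a window and no test was made of them.

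Members called in both lines were also ranked by the mean of their effects. The largest mean rise belonged to NOTCH3, a receptor of the Notch pathway, which went from 24.7 and 24.2 CPM to 114 and 123 CPM in BRCA1+ cells and from 16.9 and 16.8 to 65 and 58.6 CPM in BRCA1-null cells (4.86-fold and 3.67-fold, difference -0.41, interval -0.65 to -0.16, unadjusted p = 0.00482). It was followed by ZNF385A, OLFML2A, CDH5 and RTN2. CDH5, the cadherin of endothelial junctions, rose by 2.09 in BRCA1+ and 0.99 in BRCA1-null cells. Its difference of -1.10 had an interval of -2.09 to -0.12. Replicates of CDH5 differed, with 26.8 and 46.7 CPM in BRCA1-null DMSO, and the library differences of the lines overlapped. RTN2, a reticulon of the endoplasmic reticulum, rose by 1.61 and 1.46, with a difference of -0.15 (-0.63 to 0.34).

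Of the 5 members with the largest mean fall, CA2 (carbonic anhydrase), the BMP antagonist NOG and the sialyltransferase ST6GAL2 fell by 0.92 to 1.19 on the log2 scale in each line, and their differences of -0.26, 0.23 and -0.05 had intervals that held 0. ATF5 was the other with small error. KRT78, an epithelial keratin, had 7.58 and 112 CPM in BRCA1+ DMSO and 167 and 175 CPM in BRCA1-null DMSO libraries, against 0.221 and 2.5 and then 0.917 and 2.49 CPM with entinostat. BRCA1+ DMSO replicate 1 stood apart, and the difference of -1.40 had an interval of -6.67 to 3.87. The squamous marker KRT4, which is not a member, followed nearly the same levels in the same libraries (7.2 and 112, 0 and 2.33, 166 and 175, and 1.43 and 2.2 CPM), and its part in the result was not tested.

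Gene lists were then read for the difference. No list member was called. Of 512 member genes in 19 lists, 12 had an unadjusted p under 0.05 with the higher and 19 with the lower response in BRCA1-null cells (6.05%, against 4.06% of all members). The lists were compiled with earlier results of these data known, and their medians are descriptions, to be set beside 0.04 over all members and 0.03 over all tested genes. The median was positive for 14 lists with TMM factors, for 13 with DESeq2 size factors and for 6 with upper-quartile factors, and 5 lists were negative under all 3 scalings. The counts of list genes called in a line stand beside 7.78% of all members that rose and 9.65% that fell in BRCA1+ cells, and 6.92% and 4.35% in BRCA1-null cells.

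**Figure D5:**
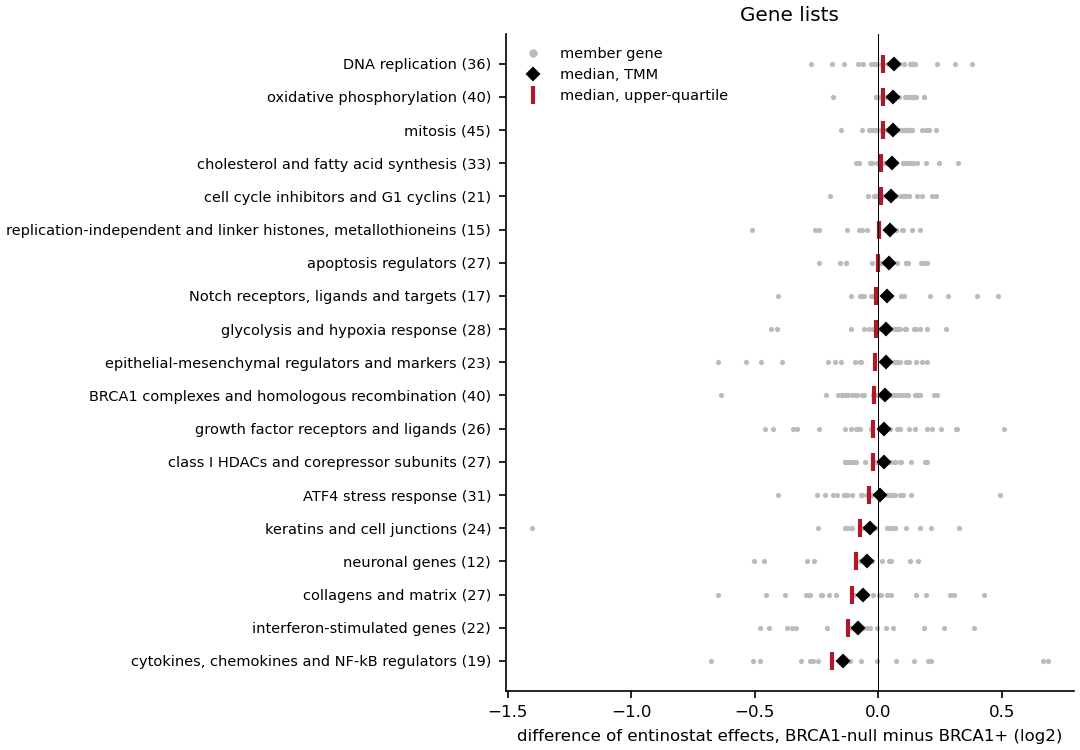
Difference of entinostat effects (log2, BRCA1-null minus BRCA1+) for the members of each list (grey points, number of members in brackets), with the list median under TMM (diamond) and upper-quartile factors (red tick). All medians lie between -0.19 and 0.06.

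Proliferation genes are lowered by many deacetylase inhibitors. Of 45 mitosis genes, 12 fell in BRCA1+ and 1 in BRCA1-null cells, with median effects of -0.15 and -0.06, where 9.65% and 4.35% of all members fell. With upper-quartile factors 6 and 2 fell, and with the replicate block 21 and 9. Their differences were positive in 36 (80%, against 63.7% of all members) and none lay beyond 0.24, with a median of 0.06 that was 0.02 with upper-quartile factors. MAD2L1, a spindle checkpoint protein, fell in BRCA1+ cells from 62.6 and 67.7 to 53.9 and 55.5 CPM (adjusted p = 0.0305, and 0.0615 with upper-quartile factors) and had 64.9 and 64.4 against 63.7 and 64 CPM in BRCA1-null cells (difference 0.23, 0.03 to 0.44). The S-phase cyclin CCNA2 fell in BRCA1+ cells (-0.32) and had -0.14 in BRCA1-null cells. Of 36 replication genes 7 fell in each line, against the same 9.65% and 4.35% of members, and 1 rose in BRCA1-null cells. These were 12 and 11 with the replicate block. Of the 36, 3 reached an unadjusted p under 0.05 in opposite directions: the polymerase subunit POLE2 (0.38) and the primase subunit PRIM1 (0.31) on one side and the GINS subunit GINS4 (-0.27) on the other. GINS4 fell in BRCA1-null cells from 51.4 and 57.5 to 39.7 and 39.9 CPM (adjusted p = 0.00699). Of 21 cell cycle inhibitors and G1 cyclins none reached that level. The kinase CDK6 and the tumour suppressor RB1 had the smallest p, with differences of 0.18 (-0.02 to 0.37) and 0.11 (-0.07 to 0.30).

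Chromatin and repair genes showed small differences. All 27 members of the class I deacetylase and corepressor list had intervals within -1 to 1, with differences from -0.14 to 0.20, and the smallest p-values belonged to the NuRD subunits MBD2 (0.20, -0.04 to 0.43) and MBD3 (0.19, -0.08 to 0.46). MBD3 fell in both lines, by 0.66 in BRCA1+ and 0.47 in BRCA1-null cells. Of 40 members of the BRCA1 complexes and homologous recombination list, BRCA1 itself had the only difference beyond 0.5, and UIMC1 (RAP80, which brings BRCA1 to ubiquitin at breaks) had 0.24 (0.01 to 0.46). In the histone and metallothionein list, H1F0, the linker histone of resting cells, rose in BRCA1+ cells from 42.7 and 37.7 to 68.4 and 63.8 CPM (0.72, adjusted p = 0.00593) and had 84.6 and 71.8 against 98.7 and 81.3 CPM in BRCA1-null cells (0.20, adjusted p = 0.271, and 0.0318 with the replicate block), a difference of -0.51 (-0.88 to -0.15). The metallothionein MT2A had a difference of -0.26.

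Interferon and cytokine genes had the lowest list medians, on few members. Of 60 interferon-stimulated genes only 22 were members. Of these 2 rose with BRCA1 and 1 without it, and none fell, whereas 4 rose and 2 fell in each line with the replicate block, and the median difference was -0.08, with 5 positive and 17 negative. IRF1, an interferon-induced transcription factor, had 10.6 and 11.3 against 12.3 and 13.6 CPM in BRCA1+ cells and 11.3 and 13 against 11.7 and 9.51 CPM in BRCA1-null cells (difference -0.44, -0.86 to -0.03), and PARP12 had 0.27 (0.01 to 0.52). Neither passed the test in a line, whereas with the replicate block PARP12 rose in BRCA1-null cells (adjusted p = 0.0172). Of 40 cytokine, chemokine and NF-kB genes 19 were members, and 7 rose in each line, where 7.78% of all members rose in BRCA1+ and 6.92% in BRCA1-null cells. The block made these counts 12 and 11. Their median difference was -0.14. TNFAIP2, a TNF-induced gene, rose by 1.32 in BRCA1+ and 0.81 in BRCA1-null cells (difference -0.51, -0.77 to -0.24), and the cytokine IL1A by 1.68 and 1.00 (difference -0.68, unadjusted p = 0.0153), whereas CXCL1 went the other way.

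Of 27 collagen and matrix genes none fell, while 8 rose in BRCA1+ and 7 in BRCA1-null cells, where 7.78% and 6.92% of all members rose. With the replicate block 13 and 9 rose and 1 fell, in BRCA1-null cells. The median difference was -0.06, and 4 of the 27 had an unadjusted p under 0.05 with the lower response in BRCA1-null cells, as 1.52% of all members did, and none with the higher. These were COL1A1 (-0.65), the metalloprotease inhibitor TIMP2 (-0.29), the laminin chain LAMB2 (-0.28) and THBS1 (-0.38). COL1A1, a chain of type I collagen, rose from 4.45 and 4.07 to 15.5 and 14 CPM in BRCA1+ cells and from 9.03 and 9.07 to 22.2 and 17.5 CPM in BRCA1-null cells. COL1A2, its partner chain, had -0.28 with an interval of -1.34 to 0.79, and with the replicate block it rose in BRCA1+ cells (adjusted p = 0.0069). Among 23 epithelial-mesenchymal genes 6 rose in each line, 1 fell in BRCA1+ and 2 in BRCA1-null cells. Their median difference was 0.03, with 13 positive and 10 negative, and it was -0.01 with upper-quartile factors. VIM and TGFB1 were the only 2 with an unadjusted p under 0.05, both with the lower response in BRCA1-null cells. TGFB1 rose in BRCA1+ cells from 39.5 and 33.5 to 63.2 and 54.7 CPM (0.69, adjusted p = 0.00679) and had 96.2 and 106 against 107 and 127 CPM in BRCA1-null cells (0.22, adjusted p = 0.237). In the list of 24 keratins and junction genes no member reached that level, and the desmosome proteins PKP2 and DSC2 had 0.17 and 0.21. Of the Mullerian markers, KRT19 rose in both lines (0.57 and 0.43, difference -0.13) and KRT8 in BRCA1+ cells (0.24, difference -0.13).

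Signalling lists held differences in both directions. Of 26 growth factor genes, IGFBP3, TGFA and NRG1 had positive and PDGFB and EFNA1 negative differences at an unadjusted p under 0.05. IGFBP3, which binds insulin-like growth factors, fell in both lines, from 113 and 119.6 to 60.8 and 69.3 CPM in BRCA1+ and from 188 and 179 to 155 and 138 CPM in BRCA1-null cells (difference 0.51, 0.25 to 0.77). TGFA, a ligand of the EGF receptor, rose in BRCA1-null cells from 139.7 and 131 to 173 and 171 CPM (adjusted p = 0.00712) and had 113 and 116 against 116 and 118 CPM in BRCA1+ cells, with a difference of 0.32 (0.14 to 0.50). Of 17 Notch genes 4 rose in each line, and 2 fell in BRCA1+ cells. The ligand JAG1 fell in BRCA1+ cells from 53.2 and 54.2 to 38.7 and 36.5 CPM (adjusted p = 0.00821) and had 66.2 and 57.6 against 60.7 and 53.1 CPM in BRCA1-null cells (difference 0.40, 0.11 to 0.69), opposite in sign to NOTCH3. Of 12 neuronal genes, the tubulin TUBB3 fell in BRCA1-null cells (-0.39, adjusted p = 0.0284) with 0.11 in BRCA1+ cells (difference -0.50), and MAP2 rose in BRCA1+ cells (0.93, adjusted p = 0.0104) with 0.46 in BRCA1-null cells (adjusted p = 0.121, and 0.0114 with the replicate block).

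Metabolic and survival genes had few members at an unadjusted p under 0.05. Of 40 oxidative phosphorylation genes 37 had a positive difference (92.5%, against 63.7% of all members and 73.7% of those from 7 upwards on the log2 CPM scale). With upper-quartile factors 25 did. The differences ran from -0.18 to 0.18, and none had an unadjusted p under 0.05. Their median was 0.06, and 0.02 with upper-quartile factors. NDUFV2 and COX7C, subunits of complexes I and IV, had 0.18 and 0.14. Of 33 cholesterol and fatty acid genes 26 had a positive difference (78.8%, and 19 genes with upper-quartile factors) and none reached that p, and ELOVL6, an elongase, rose in both lines (0.49 and 0.73) while DHCR7 fell in BRCA1+ cells (-0.42). Of 28 glycolysis and hypoxia genes only PFKM, a phosphofructokinase, reached it: it rose by 0.92 in BRCA1+ and 0.48 in BRCA1-null cells (difference -0.43, -0.71 to -0.16), and PDK1 had 0.27 (-0.06 to 0.60). Among 31 ATF4 stress genes the amino acid transporter SLC1A4 had -0.22 beside the 0.49 of ATF5. Of 27 apoptosis regulators cytochrome c (CYCS) had 0.18 (0.01 to 0.36), and the death receptor TNFRSF10B had -0.13.

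The 3 members nearest to the threshold were FHOD3, LRP5L and KIAA0226L, with mean log2 CPM of 3.0004, 3.0009 and 3.0013 and differences of -0.02, 0.02 and -0.34, and the 3 genes just below it were PAPL, TRDMT1 (2.9996) and NFKBIZ (2.999), with -0.49, -0.05 and 0.11. Among the genes named, the counts of LMO7, ARHGEF40, ATF5, NOTCH3, LRP1, ZNF385A, PFKM, TIMP2, TGFA, JAG1, KRT8, RB1, CDK6, CCNA2, MBD2, DSC2, NDUFV2, COX7C, TNFRSF10B, DNM1, GSN, MCAM, FHOD3 and NFKBIZ may include reads of genes that overlap them.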

How the data were processed

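Poly(A) RNA of UWB1.289 BRCA1-null and BRCA1+ cells was sequenced on an Illumina HiSeq instrument. The authors used TopHat for alignment (hg19) and NGSUtils for quantification, and deposited raw read counts per gene for 8 libraries. Annotation version and the treatment of strand and of reads with several positions are not given in the sources used here. Groups and replicate numbers came from sample titles, which do not say that a number marks a shared batch. Deviations of same-numbered libraries from their group means correlated over members at 0.718 between the BRCA1+ groups and at 0.638 between the BRCA1-null groups. Between groups of different lines they correlated at 0.234 to 0.298. The main fit did not model this pairing within a line, and the block was a single term shared by both lines. Values with the replicate block are therefore given for some, but not all, of the calls and counts that it changed.

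Counts were tested with edgeR 4.0.16 in R 4.3.3 (quasi-likelihood, legacy = FALSE, TMM, filterByExpr, 1 mean per group, 4 residual degrees of freedom), two-sided, with Benjamini-Hochberg adjustment over the 17714 genes tested. CPM used TMM library sizes, and log2 CPM a prior count of 2. Intervals are 95% from the fit. Totals of 31900158 to 53549893 set a floor of 3 counts at 0.0552 to 0.0946 CPM, for counting error only. The entry without a gene name held 0 counts. The code was tested on simulated data.

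Members and lists were chosen with earlier results of these data known. Named genes were the 10 members with the largest difference in each direction (unadjusted p under 0.05, no overlap), the 5 with the largest mean effect in each direction among those called in both lines, the 2 with the smallest p of each list, BRCA1, and the 3 genes nearest to the threshold on each side. Others are named as chosen after their values were seen. Spans deposited for SNAR-A, SRGAP2D, FAM72C and MIR4435 join separate loci, so their overlap with GRIN2D, ATF5, NMNAT2, EFNA1, IL1R2 and ST6GAL2 is nominal. Alternatives were DESeq2 1.42.0 size factors and Wald test, upper-quartile factors, other filters, the likelihood ratio test, the legacy fit, a replicate block, thinned counts, other member thresholds, fits per line and each library left out.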

Additional observations from a re-analysis of the deposited data

Results flagged for a closer look

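In 6 of the 90 genes examined by name, every entinostat library lay on one side of every DMSO library in BRCA1-null cells and on the other side in BRCA1+ cells. The difference of responses was tested and was not called in any of them (edgeR's quasi-likelihood test, adjusted p of 0.66 or more). BRCA1 (-0.64, unadjusted p = 0.000527) and VDR (-0.54, unadjusted p = 0.000224) had positive library differences in BRCA1+ and negative ones in BRCA1-null cells, and so did the tubulin TUBB3 (-0.50), KIAA0226L (-0.34), a member just above the expression threshold, and the Mediator subunit MED18 (-0.59), which was picked by its p of 0.00102. MED18 fell in BRCA1-null cells from 26.7 and 28.1 to 20.3 and 18 CPM (adjusted p = 0.00825), against 17.7 and 18.2 and then 19 and 18.9 CPM in BRCA1+ cells. UIMC1 (0.24) went the other way. In all, 219 members (2.1%) showed opposite directions by this measure, 163 of them upward in BRCA1-null cells, against 2.98% of all tested genes. This count was made with TMM factors only, and the direction of small differences depended on scaling. Many of the 90 named genes were chosen for a large difference or a small p, which favours opposite directions. The 6 of 90 is therefore not comparable with these shares.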

How the results depend on the processing

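With 0 members called, DESeq2's Wald test gave 9 (11 over all tested genes), edgeR's likelihood ratio test 9 (18) and the fit with the replicate block 1 (1), which was EPB41L3 with an adjusted p of 0.0282. The other settings, each omitted library among them, gave 0. The count of 422 members at an unadjusted p under 0.05 became 273 with the Wald test, 994 with the replicate block and 275 to 555 without single libraries, lowest without BRCA1+ entinostat replicate 2. Entinostat calls became 2466 in BRCA1-null and 3261 in BRCA1+ cells with the block, 476 in BRCA1-null cells fitted alone, and 326 to 1034 and 482 to 1733 without single libraries. Of the 90 genes named, the block added calls for 13 in BRCA1-null and 5 in BRCA1+ cells and 1 call of a difference, and it ended none.

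The 63.7% of members with a positive difference became 60.8% with DESeq2 size factors, 49.3% with upper-quartile factors, 54.2% with only members fitted, 60.7% with the Wald test, 60.9% with thinned counts and 54.4% to 64.1% without single libraries. Non-overlapping members became 730 higher and 863 lower with upper-quartile factors. The share with the larger response in BRCA1+ cells became, in the same order of settings, 64.8%, 73.3%, 70.9% and 64.6% of the raised and 73.8%, 60.4%, 67.4% and 73.5% of the lowered members, 71% of the lowered with thinned counts, and 57.7% to 68.4% and 65.2% to 76.2% without single libraries.

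Among the same 90 genes, the difference turned sign when single libraries were left out for CA2 (-0.63 to 0.16), COL1A2 (-0.65 to 0.12), KRT78 (-4.40 to 1.39), NOG (-0.075 to 0.49), RTN2 (-0.33 to 0.025), ST6GAL2 (-0.31 to 0.15), FHOD3 (-0.21 to 0.13), LRP5L (-0.12 to 0.15), NFKBIZ (-0.084 to 0.27) and TRDMT1 (-0.27 to 0.17). It also turned with thinned counts for FHOD3 (0.013), TRDMT1 (0.097) and LRP5L (-0.082), and for LRP5L with upper-quartile factors (-0.021), only members fitted (-0.011), the Wald test (-0.00464) and the replicate block (-0.000543). The cause of these changes was not tested. With 2 libraries per group the unadjusted interval had a median half-width of 0.27 among members. The adjusted test left uncalled the 1.20 of SLC7A8 and, with a far wider interval, the -1.40 of KRT78.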
